A study of Homo sapiens with 10 samples.

Results

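Replication-dependent histone genes encode the core histones H2A, H2B, H3 and H4 and the linker histone H1, which package newly made DNA. They were taken here as the protein-coding genes with symbols H1-1 to H1-6 and H2AC, H2BC, H3C or H4C followed by digits, which gave 69 of 19821 protein-coding genes on chromosomes 1 to 22 and X. There were 6 H1, 17 H2A, 18 H2B, 13 H3 and 15 H4 genes, of which 55 lay on chromosome 6, 13 on chromosome 1 and 1, H4C16, on chromosome 12. The choice used symbols alone and no measured value. Most of these genes are short: 61 of the 69 spanned less than 2 kb, with a median of 494 bp.

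The cells were wild-type HCT116, an established line from a human colorectal carcinoma, profiled by CUT&Tag with no treatment named. The method tethers a transposase to an antibody on chromatin and sequences the DNA it cuts. There were 3 samples each for POLR1A (the catalytic subunit of RNA polymerase I), POLR2A (that of RNA polymerase II) and H3K9me3 (a mark of heterochromatin), and 1 for H3K4me3 (a mark of active promoters), with 100000 to 200000 cells per replicate. Each target is represented by 1 deposited peak list with no value per replicate, so the values below are single values with no replicate error and no test, and differences are described only.

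Histone genes of this class are transcribed by RNA polymerase II during DNA replication, without introns in the main transcript and with a stem-loop in place of a poly(A) tail. NPAT, a substrate of cyclin E and CDK2, gathers at the clusters in nuclear histone locus bodies and activates them. The genes of each histone type have promoters with elements of their own, and many H2A and H2B genes are transcribed away from each other from a common stretch of DNA. RNA polymerase I is best known for transcribing the ribosomal RNA genes in the nucleolus.

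The promoter sequences show these elements. The RefSeq promoter table (GRCh38.p14) held 64 of the 69 genes. H3C11, H3C12, H4C1, H4C3 and H2AC12 were not matched, and neither strand nor promoter is given for them below. The 250 bases before each start were searched on both strands for 5 motifs. The TATA box was searched as TATAAA. The CCAAT box was searched by the letters of its name. The octamer, a binding sequence of the factor OCT1, was searched as ATTTGCAT. For the H1 box, known from linker histone promoters, the letters were AAACACA. An E2F-like motif was searched as TTTNNCGC, where N is any base. None of these motifs contains another, though neighbouring matches can overlap at their ends. The following 4 H2B promoters span the interval to a neighbouring H2A gene, and were chosen because H2BC11 had the strongest POLR1A and POLR2A peaks of the family, H2BC12 a weaker POLR1A peak, H2BC4 a strong POLR2A peak without POLR1A, and H2BC8 no peak of any list. Each is given 5′ to 3′ on the gene's own strand, with the TATA box, CCAAT box, octamer and H1 box of either orientation in capitals. They lie at chr6:27132796-27133045 (minus strand), chr6:27146859-27147108 (minus), chr6:26123927-26124176 (minus) and chr6:26216689-26216938 (minus) in the order shown.
H2BC11: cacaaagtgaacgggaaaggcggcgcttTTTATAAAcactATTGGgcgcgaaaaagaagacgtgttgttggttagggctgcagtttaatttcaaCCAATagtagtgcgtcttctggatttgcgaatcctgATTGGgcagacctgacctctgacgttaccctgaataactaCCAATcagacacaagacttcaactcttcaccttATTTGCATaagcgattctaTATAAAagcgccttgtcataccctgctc
H2BC12: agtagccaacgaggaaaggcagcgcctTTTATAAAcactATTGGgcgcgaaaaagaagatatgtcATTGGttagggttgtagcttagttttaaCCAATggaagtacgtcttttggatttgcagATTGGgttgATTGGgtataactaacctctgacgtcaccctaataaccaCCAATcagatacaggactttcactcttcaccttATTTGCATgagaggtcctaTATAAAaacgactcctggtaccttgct
H2BC4: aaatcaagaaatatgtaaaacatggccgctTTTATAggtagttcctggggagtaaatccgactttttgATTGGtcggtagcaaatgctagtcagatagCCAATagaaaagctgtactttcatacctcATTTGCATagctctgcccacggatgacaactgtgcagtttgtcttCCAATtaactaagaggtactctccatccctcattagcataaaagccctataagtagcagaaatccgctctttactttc
H2BC8: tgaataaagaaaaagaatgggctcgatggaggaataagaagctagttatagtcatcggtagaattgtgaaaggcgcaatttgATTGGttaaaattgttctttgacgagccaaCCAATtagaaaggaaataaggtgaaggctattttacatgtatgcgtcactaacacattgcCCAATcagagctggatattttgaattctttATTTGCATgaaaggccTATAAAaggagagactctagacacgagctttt

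Another 4 promoters stand for the other types. H3C1 (chr6:26020201-26020450, plus strand) is the H3 gene with the highest POLR1A value, from a peak beyond its 3′ end and outside the printed bases. H4C11 (chr6:27823842-27824091, plus) had the strongest H3K4me3 peak of the family on chromosome 6. H1-2 (chr6:26056471-26056720, minus) was the H1 gene with POLR1A, and H1-5 (chr6:27867589-27867838, minus) an H1 gene with no peak.
H3C1: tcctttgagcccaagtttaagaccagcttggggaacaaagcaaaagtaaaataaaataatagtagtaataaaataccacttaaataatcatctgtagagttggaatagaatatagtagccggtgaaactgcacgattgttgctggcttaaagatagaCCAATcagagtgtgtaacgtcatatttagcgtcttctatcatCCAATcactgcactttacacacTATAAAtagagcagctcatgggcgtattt
H4C11: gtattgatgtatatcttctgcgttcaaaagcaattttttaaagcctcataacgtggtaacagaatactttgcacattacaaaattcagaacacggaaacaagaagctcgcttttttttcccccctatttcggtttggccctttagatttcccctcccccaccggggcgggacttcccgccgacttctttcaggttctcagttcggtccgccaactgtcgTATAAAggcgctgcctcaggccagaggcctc
H1-2: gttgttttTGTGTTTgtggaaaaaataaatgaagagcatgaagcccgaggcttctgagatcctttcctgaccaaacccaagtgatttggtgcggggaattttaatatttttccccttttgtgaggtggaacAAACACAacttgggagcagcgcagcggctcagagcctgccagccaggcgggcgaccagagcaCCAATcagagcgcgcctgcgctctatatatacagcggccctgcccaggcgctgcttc
H1-5: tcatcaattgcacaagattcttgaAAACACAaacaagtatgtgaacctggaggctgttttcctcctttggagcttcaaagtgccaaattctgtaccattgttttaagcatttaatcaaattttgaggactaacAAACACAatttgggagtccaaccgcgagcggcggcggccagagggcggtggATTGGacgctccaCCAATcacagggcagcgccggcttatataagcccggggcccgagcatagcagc

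The CCAAT box was found in 18 of 18 H2B, 16 of 16 H2A, 11 of 11 H3 and 6 of 6 H1 promoters, but in 3 of 13 H4 promoters. Over the whole table of 27305 genes, 33.04% of promoters held it. The octamer was found in 14 of 18 H2B and 11 of 16 H2A promoters, in 1 of 11 H3 promoters and in none of the 6 H1 and 13 H4 promoters, against 1.66% of all promoters. The 1 H3 promoter, that of H3C4, is the same stretch as the H2AC7 promoter, since both annotated genes begin at the same base, so that octamer is counted under both types. In 13 H2B promoters it stood on the gene's own strand, starting 45 to 123 bases before the start, whereas in 10 H2A promoters it stood on the opposite strand. Neighbouring H2A and H2B promoters cover much of the same interval, so the same octamer can be counted for both genes. This was so for H2AC1/H2BC1, H2BC4/H2AC6, H2AC7/H2BC7, H2BC8/H2AC8, H2BC11/H2AC11, H2AC14/H2BC14 and H2BC21/H2AC20. The contrast of strands is thus largely the same sites read from both sides. Other motifs in such intervals can likewise be counted for both genes. In the printed H2BC11 promoter it begins 47 bases and in H2BC8 48 bases before the start. The H1 box was found in 6 of 6 H1 promoters and in no other member, against 4.95% of all promoters. The E2F-like motif was found in 15 of 64 member promoters and in 5.93% of all promoters.

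A TATA box in either orientation was found in 42 of 64 members (65.6%) and in 11.1% of all promoters. On the gene's own strand it started within 40 bases of the start in 34 of 64 members, always between 27 and 32 bases before it, and did so in 2.70% of all promoters. The member promoters were also poor in G and C. Their median GC content was 42.6% (range 34.4 to 60.8), against 62.4% for 15813 protein-coding promoters in the table, and the median number of CpG dinucleotides in 250 bases was 9 against 17. Among members with POLR2A the TATA box was in 27 of 35 promoters, the CCAAT box in 29 and the octamer in 17, and the median GC content was 41.6%. Among the 29 without POLR2A the TATA box was in 15, the CCAAT box in 25 and the octamer in 9, and the median GC content was 47.6%. Of 14 promoters of members with POLR1A, 7 held the TATA box, 14 the CCAAT box, 7 the octamer, 1 the H1 box and 5 the E2F-like motif. Of 50 without POLR1A, 35 held the TATA box, 40 the CCAAT box, 19 the octamer, 5 the H1 box and 10 the E2F-like motif. The stretch common to H3C4 and H2AC7 is counted for both genes among the 14. Neighbouring H2A and H2B genes also share motif sites, such as the E2F-like motifs of H2BC11 with H2AC11 and of H2BC13 with H2AC13. These are therefore counts of genes and not of separate sites. H2BC8, which held no peak, shared 3 elements with H2BC11, namely a TATA box, CCAAT boxes and an octamer. The E2F-like motif, not in capitals above, was in H2BC11 and not in H2BC8.

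POLR2A was found within 1 kb of an end of 39 of the 69 genes (56.5%), where 41.3% of all protein-coding genes had it. In such bulk cells a peak present in few cells and a weak peak in all cells cannot be told apart. H3K4me3 was at 42 (60.9%, against 54.6% of all), POLR1A at 17 (24.6%, against 11.2%) and H3K9me3 at 6 (8.70%, against 2.70%). Each of the 17 genes with POLR1A also had POLR2A and H3K4me3. This was usual: of 2213 protein-coding genes with POLR1A, 2126 also had POLR2A. POLR1A stood with POLR2A and H3K4me3 but no H3K9me3 at 1913 of them, and with all 3 other targets at 201. Both polymerases were at the ends of 10.7% of all protein-coding genes. Because neighbouring genes share peaks, the counts of distinct peaks were smaller: 9 for POLR1A, 35 for POLR2A, 34 for H3K4me3 and 4 for H3K9me3. Of the 9 POLR1A peaks, 7 lay at the ends of more than 1 member.

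**Figure D1:**
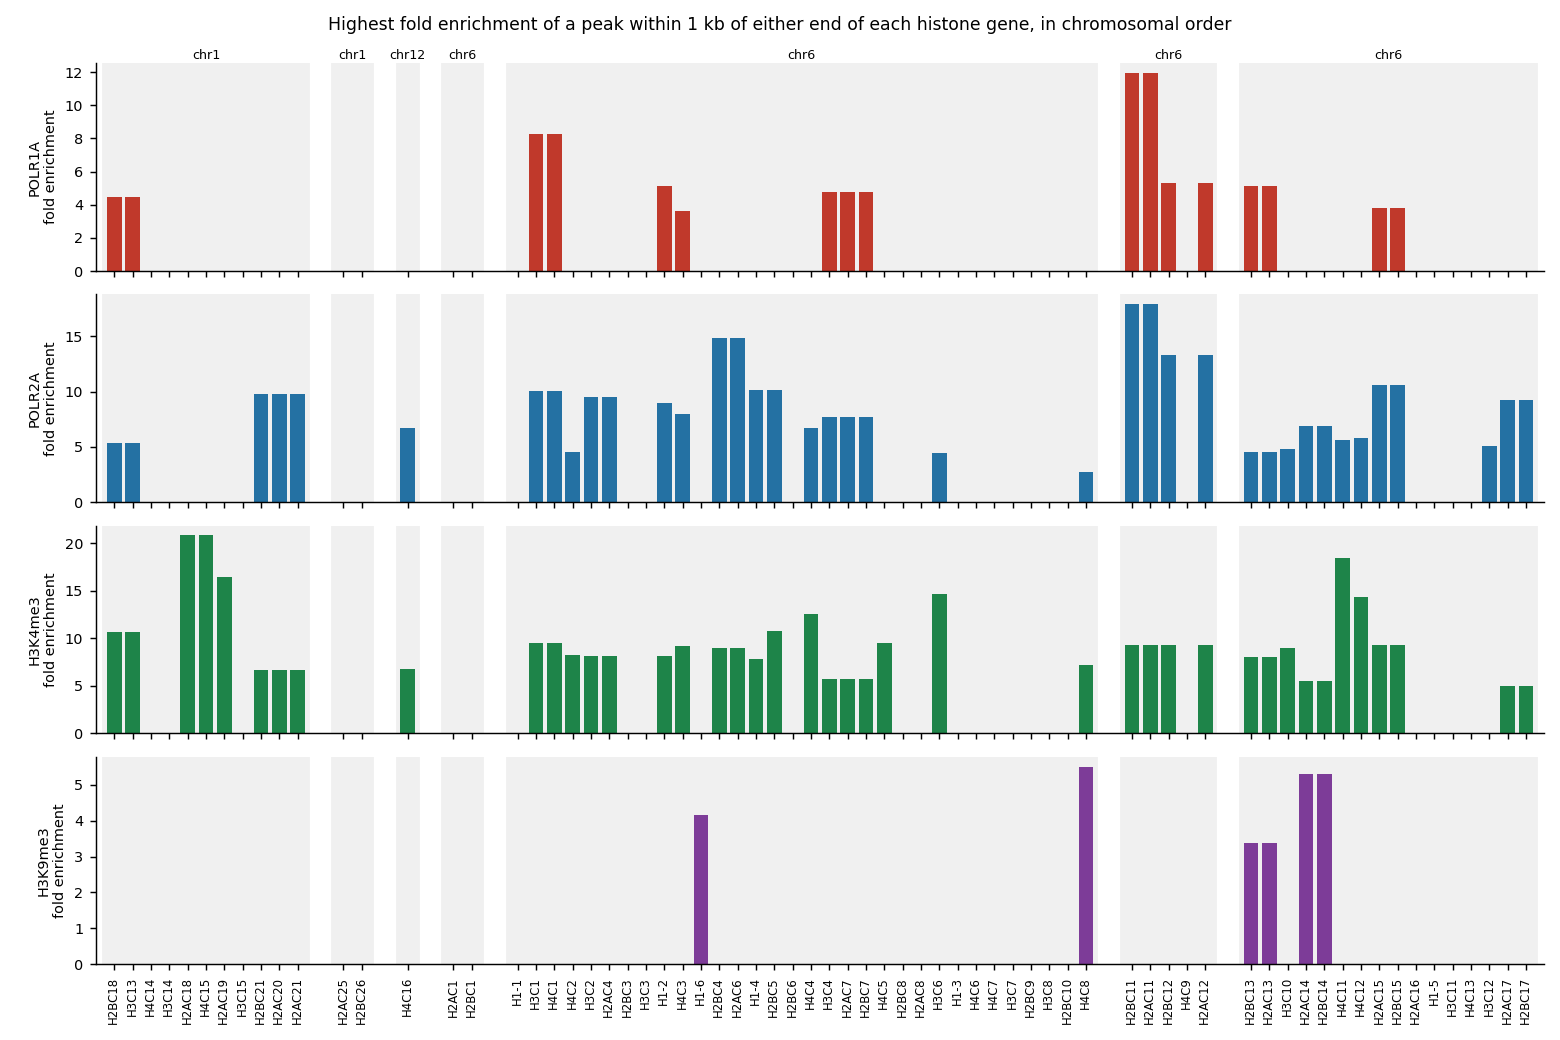
Highest fold enrichment (linear ratio by the authors, comparable only within a row) of a peak within 1 kb of either end of each of the 69 histone genes, 1 bar per gene, in chromosomal order on chromosomes 1, 12 and 6. Grey blocks are groups of members less than 200 kb apart, and a missing bar means no peak. POLR1A bars stand only where POLR2A and H3K4me3 bars stand, and 25 genes have no bar in any row.

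No peak of any list lay at 25 of the genes (36.2%, against 42.8% of all protein-coding genes). POLR2A with H3K4me3 alone marked 18 genes (26.1%, against 28.6% of all genes), and POLR1A, POLR2A and H3K4me3 together without H3K9me3 marked 15 (21.7%, against 9.65% of all genes). H3K4me3 was the only target at 4 genes, H2AC18, H2AC19, H4C15 and H4C5 (5.80%, against 14.4% of all genes). H3C12 had only POLR2A and H1-6 only H3K9me3. All 4 targets had a peak within 1 kb of an end of H2BC13 and of H2AC13, as they did at 1.01% of all protein-coding genes. The H3K9me3 peak there overlapped no peak of the other targets.

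By histone type, POLR1A was at 6 of 18 H2B genes, 5 of 17 H2A genes, 3 of 13 H3 genes, 2 of 15 H4 genes and 1 of 6 H1 genes. Of the H3 genes, H3C4 shares its start with H2AC7, and H3C13 has the peak only on its 3′ side, beside H2BC18, and not with a 500 bp window. POLR2A was at 11 of 17 H2A genes, 11 of 18 H2B genes, 7 of 13 H3 genes, 8 of 15 H4 genes and 2 of 6 H1 genes. H3K4me3 followed with 13 H2A, 11 H2B, 6 H3, 10 H4 and 2 H1 genes. With so few genes of each type and shared peaks, exact 95% intervals for POLR1A overlapped between all types, for example 13.3 to 59.01% for H2B and 1.66 to 40.5% for H4. A peak shared between types counts in each of them, which the intervals do not allow for, so they are no test of the types.

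**Figure D2:**
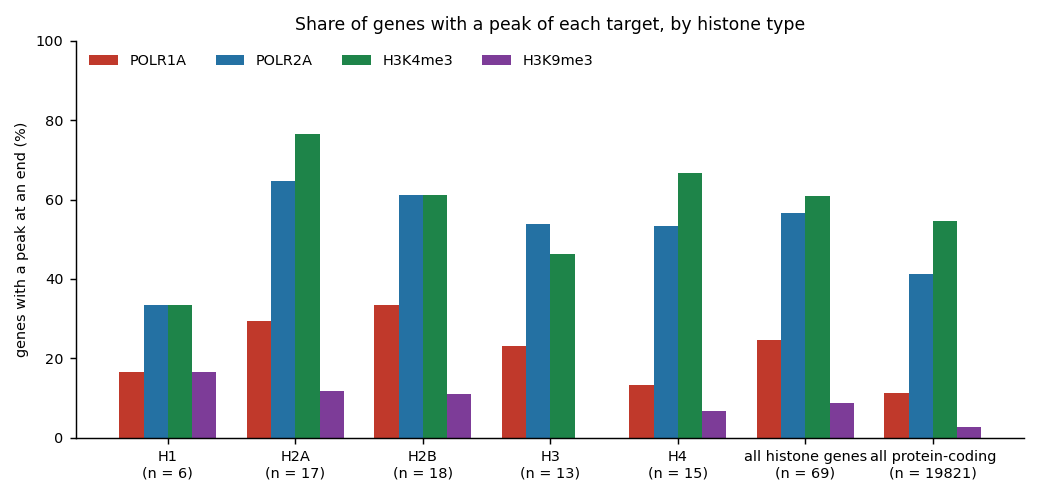
Percent of genes with a peak of each target within 1 kb of either end, by histone type, for all 69 histone genes and for all 19821 protein-coding genes. Colours are targets. POLR1A bars run from 13.3% in H4 to 33.3% in H2B genes, beside 11.2% of all protein-coding genes.

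The peaks at histone genes were mostly of moderate height. Fold enrichment, the authors' linear ratio of a peak over their background, was read only within its own list. The median POLR1A fold enrichment of the 9 peaks was 5.10 (range 3.61 to 11.9), against 6.0 over the 1766 POLR1A peaks at any protein-coding gene end, and 2 of the 9 exceeded that median. For POLR2A the median was 6.29 (range 2.72 to 17.9) against 8.12, with 11 of 35 above it. For H3K4me3 it was 8.20 (2.94 to 20.8) against 10.1, with 8 of 34 above it. H3K9me3 peaks had a median of 4.72 against 4.57. Of the POLR1A peaks 2 of 9 had a −log10 q of 5 or more (22.2%, against 46.1% of POLR1A peaks at gene ends). It was 20 of 35 for POLR2A (57.1% against 74.4%), 34 of 34 for H3K4me3 (100% against 96.1%) and 0 of 4 for H3K9me3 (0% against 22.9%). With only such peaks counted, POLR1A was at 4 histone genes (5.80%), against 5.36% of all protein-coding genes. The higher share at histone genes was thus not seen at this threshold.

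The highest POLR1A value was at H2BC11 and H2AC11, which encode H2B and H2A and share 1 peak with a fold enrichment of 11.9 at chr6:27132747-27133121. It exceeded 96.7% of the POLR1A list. The POLR2A peak there was also the highest of the family (17.9), and both summits lay at position 27132805, 10 bases before the start of H2BC11. H3K4me3 at this pair was 9.32. The second POLR1A peak (8.24) lay at chr6:26021447-26021760, where it overlapped the left end of H4C1, an H4 gene, and was within 1 kb of the right end of H3C1, an H3 gene. Its summit was 3 bp from that of a POLR2A peak of 10.1, and H3K4me3 there was 9.49. These were the 2 POLR1A peaks that passed the stricter threshold.

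The other 7 POLR1A peaks had values of 3.61 to 5.33, all below the median for gene ends. H2BC12 and H2AC12 shared one of 5.33, with POLR2A at 13.3 and H3K4me3 at 9.28. The peak of 5.10 at H1-2, a linker histone gene, lay beyond the 3′ end at chr6:26055160-26055383, with its summit 1266 bases after the start, and the stronger of 2 POLR2A peaks (8.99) lay beyond the 3′ end as well, the weaker one (3.59) being inside the gene. The peak at H2BC13 and H2AC13, also 5.10, lay within the H2AC13 gene, with its summit 371 bases after the start. The POLR2A peak of this pair (4.58) had its summit 104 bases before that start and shared 82 bp with the POLR1A peak. H3C4, H2AC7 and H2BC7 shared a POLR1A peak of 4.76, with POLR2A at 7.67. The annotated span of H3C4 ends at the same base as H2AC7, so this peak cannot be assigned to H3C4. On chromosome 1, H2BC18 and H3C13 shared a peak of 4.46 with POLR2A at 5.39. The lowest values were at H2AC15 and H2BC15 (3.81, POLR2A 10.6) and at H4C3 (3.61, POLR2A 7.95).

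All 9 POLR1A peaks overlapped POLR2A and H3K4me3, and none overlapped H3K9me3. Counted by genes, POLR2A accompanied POLR1A at 2126 of 2213 protein-coding genes, so this is not particular to histone genes. Among the 9 POLR1A peaks, 7 lay wholly within the POLR2A peak and 9 within the H3K4me3 peak. Their summits were 0 to 475 bp from the POLR2A summit (median 180). POLR2A peaks with POLR1A had a median fold enrichment of 8.99 (range 4.58 to 17.9, 9 peaks) and those without 5.55 (2.72 to 14.8, 26 peaks), and the ranges overlapped. H2BC4 and H2AC6 shared the highest POLR2A peak without POLR1A, at 14.8.

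Histone genes with POLR2A and H3K4me3 but neither POLR1A nor H3K9me3 covered every type. Among H1 genes it was H1-4, which shared a POLR2A peak of 10.2 with the neighbouring H2B gene H2BC5 and had a weaker one of 3.89 near its own start. Among H2A genes, H2AC20 and H2AC21 shared a POLR2A peak of 9.77 with the H2B gene H2BC21, and H2AC17 one of 9.24 with H2BC17. Their H3K4me3 values were 6.62 and 4.93, both below the median for gene ends. The summit of the POLR2A peak of 9.77 lay 92 bases before the start of H2BC21. POLR2A peaks with summits nearest the start of H2AC21 were weaker, at 5.47 and 4.30. The H2A gene H2AC4 and its neighbour, the H3 gene H3C2, had peaks with summits inside each gene. These were 7.44 for POLR2A and 8.14 for H3K4me3 in H2AC4, and 9.49 and 5.57 in H3C2. H3C10, another H3 gene, had 4.85 and 8.96. H3C6 had a low POLR2A value (4.48) beside one of the highest for H3K4me3. The H4 genes H4C2 and H4C4 had POLR2A at 4.51 and 6.74 and H3K4me3 at 8.25 and 12.5. Values of POLR2A above the gene-end median were therefore found at H2A, H2B and H3 genes in this set, and not at H4 genes. For H1 such a value came only from the peak shared with H2BC5, whose summit lay 164 bases before the start of H2BC5.

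Among all protein-coding genes POLR1A was more frequent where POLR2A was stronger, so the histone genes were compared within 3 classes of POLR2A fold enrichment. POLR1A was at 17 of the 39 histone genes that had POLR2A, and at 26.0% of all protein-coding genes that had it. In the weakest class (POLR2A up to 7.08) it was 4 of 15 histone genes (26.7%, exact 95% interval 7.79 to 55.1) and 7.29% of all genes. In the middle class (7.08 to 11.1) it was 9 of 18 (50%, 26.02 to 73.98) and 20.0% of all genes. In the strongest class it was 4 of 6 (66.7%, 22.3 to 95.7) and 50.6% of all genes. In this top class the order turned with the setting: with 5 classes it was 2 of 4 histone genes (50%) against 58.9% of all genes, and among peaks with −log10 q at or above 5 it was 2 of 6 (33.3%) against 36.2%. Genes that share a peak are counted more than once here, and the intervals above do not allow for it. The 4 genes in the weakest class were H2BC18 with H3C13 and H2BC13 with H2AC13, each pair sharing 1 POLR1A peak. With each POLR2A peak at a gene end counted once, 9 of 35 peaks at histone genes overlapped POLR1A (25.7%), against 21.8% of all such peaks. By class it was 2 of 18, 4 of 13 and 3 of 4, against 5.01%, 15.02% and 45.5%. These 3 intervals, the widest from 19.4 to 99.4%, all hold the value for all peaks, so a difference was not detectable with peaks as units.

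**Figure D3:**
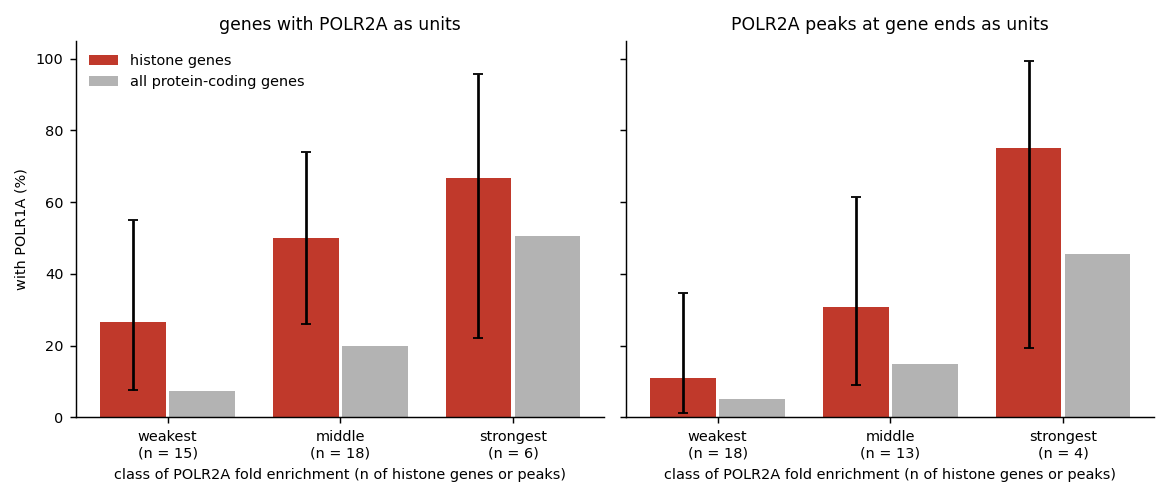
Percent with POLR1A in 3 classes of equal size by POLR2A fold enrichment, for histone genes (red, with exact 95% intervals for counting error only) and all protein-coding genes (grey), counted over genes with POLR2A on the left and over POLR2A peaks at gene ends on the right. The red bars rise from 26.7% to 66.7% on the left and from 11.1% to 75% on the right, and the intervals on the right hold the grey values. The intervals on the left treat genes that share a peak as separate.

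Pairs of 1 H2A and 1 H2B gene with facing ends less than 500 bp apart numbered 12, with intervals of 193 to 247 bp. In 11 of them the strands pointed away from each other, and in the remaining one the strand of H2AC12 is not given. Both POLR2A and H3K4me3 overlapped the interval, wholly or in part, in 9 pairs. In 8 of these 9 a POLR2A summit fell within the interval, and in none did an H3K4me3 summit. POLR1A was at 5 pairs and overlapped the interval, wholly or in part, in 4 of them. These were H2AC7/H2BC7, H2BC11/H2AC11, H2BC12/H2AC12 and H2AC15/H2BC15. A POLR1A summit fell within the interval in 3 of these, and at H2AC15/H2BC15 it lay inside H2BC15. The fifth, H2BC13/H2AC13, had its POLR1A peak within H2AC13. The other 3 pairs, H2AC1/H2BC1, H2AC25/H2BC26 and H2BC8/H2AC8, held no peak of any list. H2AC1 and H2BC1 encode histones of the testis.

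Thus 10 of 24 genes in pairs had POLR1A and 18 had POLR2A, against 7 and 21 of the 45 other histone genes. Among the 11 H2A and H2B genes outside pairs, 1 had POLR1A (H2BC18) and 4 had POLR2A. This grouping was chosen after the values were seen, and the paired genes count each shared peak more than once, so it carries no test.

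**Figure D4:**
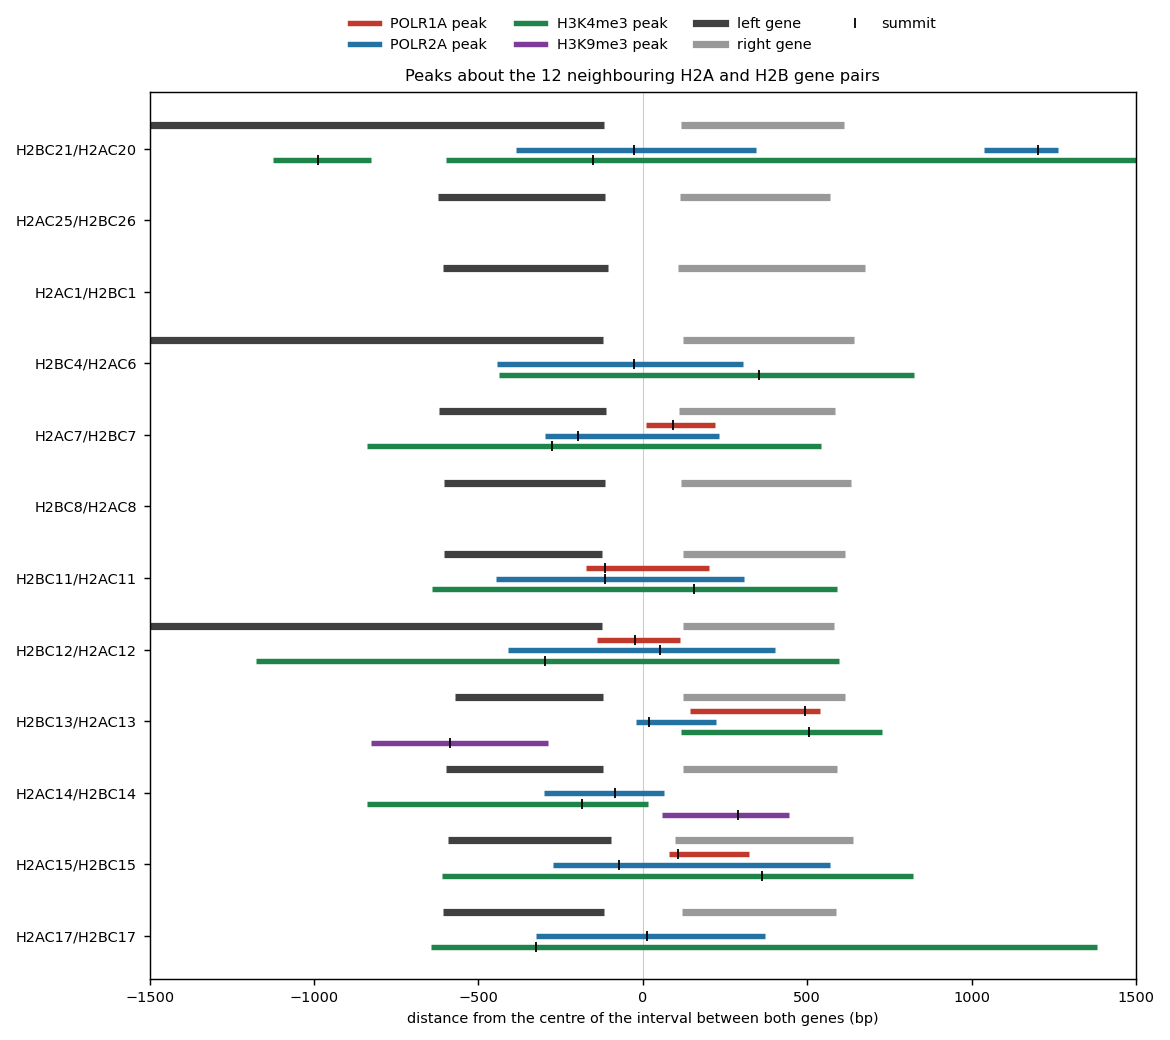
Peaks within 1500 bp of the centre of the interval between both genes of the 12 H2A and H2B pairs, in bp on the plus strand, with the genes as dark and light grey bars and black ticks at summits. Coloured bars are peaks. POLR2A and H3K4me3 bars overlap the interval, wholly or in part, in 9 pairs, POLR1A bars in 4, and 3 pairs are empty.

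Relative to the starts of the genes the targets differed in place. Where all genes at a peak had a given start, the POLR2A summit lay a median of 78 bp from the nearest start (30 peaks, 15 before and 15 after it), and the H3K4me3 summit 231 bp from it (31 peaks, 4 before and 27 after). The 6 POLR1A summits had a median distance of 19.5 bp, and 5 of them lay within 500 bp.

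**Figure D5:**
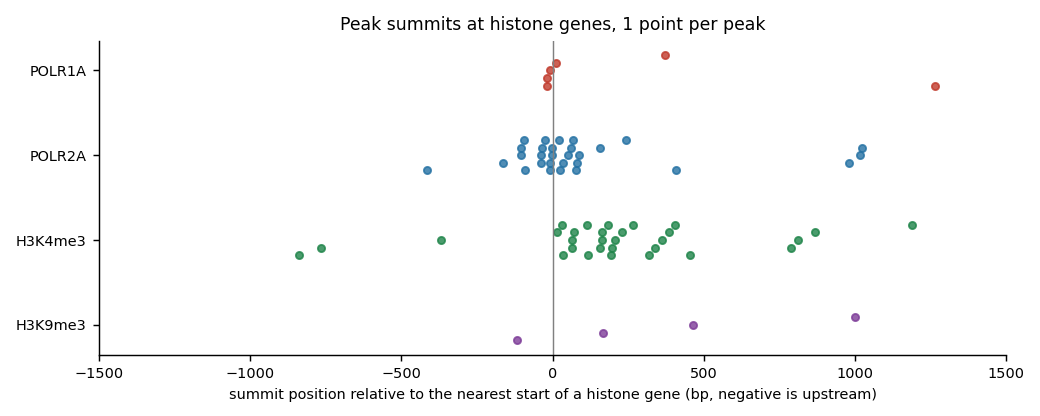
Position of peak summits relative to the nearest start of a histone gene, in bp along the gene, 1 point per distinct peak whose genes all have a given start, within 1500 bp (vertical offsets within a row only separate points). POLR2A points gather on both sides of 0, most H3K4me3 points lie after it, and 5 of 6 POLR1A points lie within 500 bp of it.

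The highest H3K4me3 value of the family was 20.8, at H2AC18 and H4C15 on chromosome 1. H4C11 followed at 18.4, H2AC19 on chromosome 1 at 16.4, and H3C6 on chromosome 6 at 14.6. The peaks near H2AC18 and H2AC19 had summits 765 and 840 bases before the starts of these H2A genes. No polymerase peak was found at H2AC18, H2AC19 or H4C15, and several genes of this region have near copies beside them. The promoters of H2AC18 and H2AC19 were 99.7% identical, those of H3C14 and H3C15 98.7%, and those of H4C14 and H4C15 100%. H4C11 and H4C12 on chromosome 6 had promoters 98.3% identical, with POLR2A at 5.62 and 5.80 and H3K4me3 at 18.4 and 14.4. How reads that match several copies were placed is not given in the sources used here, so values at these genes are uncertain, and their part in the missing peaks was not tested. H4C15 has an annotated span of 16753 bp that encloses H2AC19 and H3C15, so its ends are also uncertain.

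The chromosome 6 genes fell into 4 groups separated by more than 200 kb. The largest, H1-1 to H4C8, spanned 269 kb with 32 genes, of which 7 had POLR1A, 17 POLR2A, 18 H3K4me3 and 2 H3K9me3. In the group H2BC11 to H2AC12, 15.2 kb long, 4 of 5 genes had both polymerases and H3K4me3, from 2 peaks of each, and H4C9, enclosed by the span of H2BC12, had none. In the group H2BC13 to H2BC17, 86.4 kb long, 4 of 16 genes had POLR1A, 12 POLR2A, 11 H3K4me3 and 4 H3K9me3. H2AC1 and H2BC1 stood apart with no peak. On chromosome 1, the group H2BC18 to H2AC21 had POLR1A at 2 of 11 genes, POLR2A at 5 and H3K4me3 at 8, while H2AC25 and H2BC26, far away on the same chromosome, had none. H4C16 on chromosome 12 had POLR2A at 6.72 and H3K4me3 at 6.75. Within these spans the POLR1A list held no peak away from a histone gene. The POLR2A list held 2 and the H3K4me3 list 2 such peaks in the group H1-1 to H4C8, and each held 1 in the group H2BC18 to H2AC21.

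Genes without peaks often stood in a row. The longest run comprised H1-3, H4C6, H4C7, H3C7, H2BC9, H3C8 and H2BC10, 7 genes over 39.2 kb in which none of the lists had a peak. A second run of 4 genes, H2AC16, H1-5, H3C11 and H4C13, covered 8.22 kb. Runs of 2 were H2BC3 and H3C3, H2BC8 and H2AC8, H4C14 and H3C14, H2AC1 and H2BC1, and H2AC25 and H2BC26. The remaining genes without any peak were H1-1, H2BC6, H4C9 and H3C15. The depth of the libraries is unknown, and a missing peak means only that none passed the threshold of the list.

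H3K9me3 peaks at histone genes had low −log10 q values but fold enrichments near the median for gene ends. The highest was at H4C8 (5.50), which also had the lowest POLR2A value of the family (2.72) and H3K4me3 at 7.18. H2AC14 and H2BC14 shared an H3K9me3 peak of 5.30, H1-6, the testis H1 gene, had one of 4.15, and H2BC13 and H2AC13 shared one of 3.38. A −log10 q of 5 was reached by none of them.

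Genes that act on the histone genes were described from lists of related factors. Of 20 genes for histone transcription and 3′ end processing, 18 had POLR2A (90%), 19 H3K4me3 (95%), 5 POLR1A (25%) and 2 H3K9me3 (10%). Over all protein-coding genes the shares were 41.3% for POLR2A, 54.6% for H3K4me3, 11.2% for POLR1A and 2.70% for H3K9me3. HINFP, an activator of H4 genes, had the highest POLR1A value of this list (8.82, POLR2A 20.2). NPAT had POLR1A at 8.40, POLR2A at 20.1, H3K4me3 at 13.9 and H3K9me3 at 5.82, and shares its polymerase peaks with the neighbouring ATM. CDK2 had POLR1A at 6.70, the cap-binding gene NCBP1 at 5.67 and SYMPK, a scaffold of the cleavage complex, at 5.13, and each shares its peak with another gene. Of 17 histone chaperone genes, 13 had POLR2A (76.5%), 15 H3K4me3 (88.2%) and 2 POLR1A (11.8%, near the share of all genes). POLR1A was at RBBP4 (4.79, POLR2A 14.2), which shares both peaks with ZBTB8OS, and at NASP (4.46). POLR2A was highest at CHAF1A (16.1), a subunit of the replication-coupled assembly factor. Of 24 other histone genes, mainly of replication-independent and testis variants, 7 had POLR2A (29.2%) and 11 H3K4me3 (45.8%), both below the shares of all genes. Their share with POLR1A, 12.5%, was near that of all genes. POLR1A was at 3 of them, H2AX (6.22, with POLR2A at 24.5), H3-3B, which encodes H3.3 (5.32), and H2AZ2 (4.71), and not at H3-3A (POLR2A 17.2).

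Across the series, the lists held 3812 POLR1A, 19997 POLR2A, 17181 H3K4me3 and 16414 H3K9me3 peaks on chromosomes 1 to 22 and X. The cells carried POLR2A at 9 of 13 epithelial marker genes, among them EPCAM (12.5) and KRT19 (11.3), at 1 of 10 leukocyte genes (CD14, 2.75) and at 0 of 9 fibroblast genes. Over all protein-coding genes the share was 41.3%. The epithelial marker genes CLDN7, CDX1, VIL1 and GPA33 had no peak of any list.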

How the data were processed

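The authors deposited 4 peak lists with MACS2 in their names, for 10 labelled samples. Fold enrichment is the authors' linear ratio. The authors also deposited a −log10 q value, a score and a summit offset for each peak, and every listed peak had a −log10 q above 1. The score was not used. Per the submitters' processing notes, the tools include STAR, SAMtools 1.6 and deepTools 3.1.1, with no roles, and the builds are hg38 and GRCh38. Read depth, the settings and control of the caller and any pooling of replicates were not given in the labels or headers.

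A gene was called with a target if a peak shared at least 1 base with the 1 kb on each side of either gene end. Gene positions came from RefSeq (GRCh38.p14), without 718 genes placed on scaffolds or patches. Members of the family were compared with all 19821 protein-coding genes by counts only. Intervals are exact (Clopper-Pearson, 95%) and cover counting error only. Those over genes treat genes that share a peak as separate. Genes named were members with POLR1A, H3K9me3 or no peak, the 5 highest by POLR2A and by H3K4me3, those off chromosomes 6 and 1, and in other lists the genes with POLR1A and the 2 highest by POLR2A. The other members with POLR2A and H3K4me3 but no POLR1A, and the single marker genes given by name, were picked after their values were seen. The members and lists were chosen with earlier results of these data known. The counting was tested on simulated data. Python 3.11.15, pandas 2.3.3, SciPy 1.17.1 and Biopython 1.88 were used. Alternatives were windows of 500 bp and 2 kb, a −log10 q of at least 5, summits in the window, 100 bp shared, lists of equal length, the 5′ end only, members without near-identical promoters, 5 classes of POLR2A strength, and POLR2A peaks as units, the last chosen after seeing the data.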

Additional observations from a re-analysis of the deposited data

How the results depend on the processing

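Of 74 values recomputed under an alternative, 62 stayed within 1.5 times the main count or within its exact interval. Some could not move, such as the POLR1A counts when the other lists were cut to the POLR1A length. Others stayed only because the interval was wide, such as the share in the strongest POLR2A class (66.7%, and 33.3% at the stricter q). The tally is therefore no measure of stability. At a −log10 q of at least 5, histone genes with POLR1A fell from 17 to 4, those with both polymerases likewise to 4, those with H3K9me3 from 6 to 0, distinct POLR1A peaks from 9 to 2 and distinct POLR2A peaks from 35 to 20. The background fell too, to 5.36% of all protein-coding genes for POLR1A and 0.590% for H3K9me3. With every list as short as the POLR1A list by fold enrichment, 12 histone genes had POLR2A (17.4%, against 17.3% of all genes), 6 had H3K4me3 (8.70%, against 17.8%), 0 had H3K9me3 and 8 had both polymerases, from 7 POLR2A and 5 H3K4me3 peaks. The share with POLR1A in the strongest POLR2A class was then 100% (2 of 2 genes), against 62.5% of all genes, but it was below that of all genes with 5 classes (50% against 58.9%) and among peaks with −log10 q at or above 5 (33.3% against 36.2%). The lists of equal length and the −log10 q threshold use fewer peaks by construction, whereas the 5 classes only divide the same genes more finely. With only the 5′ end counted, 12 of 64 genes with a given strand had POLR1A (18.8%, against 11.2%). No paired analysis was possible because the peak lists carry no replicate, and for the same reason no replicate could be left out. Without replicates or depth, a missing peak cannot be told apart from too few reads.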
